A study of Marmota monax with 20 samples.

Results

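The lung library is the only lung sample among 20 RNA-seq libraries of the Eastern woodchuck, Marmota monax, a ground squirrel used as a model of hepatitis B. It was chosen by its tissue label and is 1 of 20 libraries, compared here with the 19 others. Of these, 6 are from liver, 5 from kidney and 5 from spleen, and heart, pancreas and thymus have 1 library each. All animals were adults, of both sexes in the study, untreated and negative for woodchuck hepatitis virus, and no group carries an allele or an agent. Lung and heart came from the female F6849, the animal whose genome was assembled. Pancreas and thymus came from the animal F9150. Both of these animals also gave liver, kidney and spleen, as did M4046, M4075 and M4091. The sixth liver is that of F6852. The series text counts 6 organs, whereas the sample labels give 7. With 1 lung library there is no replicate of lung, so no difference between lung and another tissue carries an error, a test or a p-value, and each one compares libraries.

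The lung is a mixed organ. Its air spaces are lined by flat cells across which gas passes and by cuboidal cells that secrete surfactant, a mixture of lipids and proteins that keeps the air spaces from collapsing. The airways carry ciliated and secretory cells, and around both lie a dense bed of capillaries, connective tissue, resident macrophages and lymphocytes. The thymus, the organ in which T cells mature, and the spleen, which filters blood, share cells of the immune system with it. In a bulk library, fewer cells of a type and less RNA per cell cannot be told apart.

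Genes are given by their Monax4B identifiers because the table pairs them with no gene names. None of the identifiers matched the RefSeq table of the species, so the lung label could not be checked against surfactant or other marker genes, nothing is said of what a gene does, and no sequence is shown. The lung library held 104383997 counts, the fifth largest total of a range from 59487004 to 140252555. Levels are counts scaled to a total of 1000000 per library (CPM) after TMM correction, which corrects for a few very abundant genes taking up a library. The TMM factor of lung was 1.5. The names of the table's columns give a sequencing lane for each library, and lung shared its lane with thymus alone. CPM values are not divided by gene length, so levels are compared between libraries and not between genes.

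More genes were detected in lung than in any other library. At least 10 counts were found for 20820 of 30973 genes in lung, against 20323 in the next library, a kidney. The numbers were 19279 to 20323 in kidney, 19160 to 19954 in spleen, 18762 in heart, 18627 in thymus, 17581 in pancreas and 17229 to 18138 in liver. With every library reduced to the smallest total, 59487004 counts, lung had 19950 genes and the next library, another kidney, had 19656. At these equal totals kidney had 19055 to 19656 genes, spleen 18748 to 19160, heart 18431, thymus 18381, pancreas 16898 and liver 16413 to 16868. Equal totals still leave fewer counts for most genes where a few genes take up a library. With each library reduced instead to the smallest total after TMM correction, lung had 18627 genes, kidney 17715 to 18239, spleen 17562 to 17700, heart 17667, pancreas 17581, thymus 17409 and liver 16778 to 17192. Lung was first by both reductions, whereas pancreas and thymus changed places. At a limit of 1 count the lung library had 23647 genes and the next library 23176, and at 1 CPM it had 16017 and the next library 15595.

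**Figure D1:**
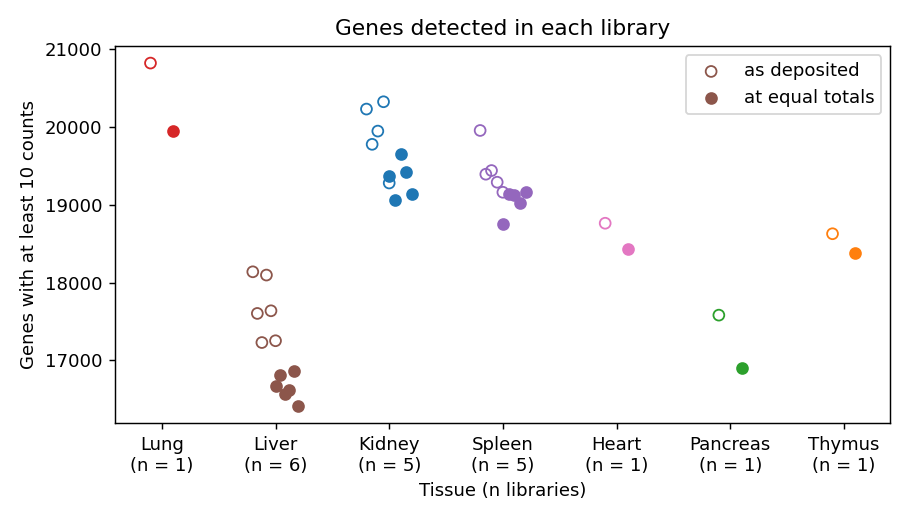
Genes with at least 10 counts (y axis) in each library, by tissue (x axis). Open circles are the deposited counts and filled circles the number expected at 59487004 counts. The lung library lies above all 19 others on both scales, at 20820 and 19950 genes.

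The lung counts were spread over many genes. The 10 most abundant genes held 6.01% of the lung counts. The number of genes that together held the first 50% of the counts was 1242 in lung, 1247 to 1334 in the 5 kidneys, 78 to 124 in liver and 10 in pancreas. It was 1033 to 1210 in spleen, 646 in thymus and 546 in heart. Lung thus lay between spleen and kidney in this measure, and far from thymus, heart, liver and pancreas.

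Of the genes with at least 10 counts in lung, 14478 had at least 10 counts in every library. At the other end, 286 genes had at least 10 counts in lung only, and 32 of them had 0 counts in each of the other 19 libraries. Of these 32, the ones with the most counts in lung were Monax4B016561 with 5066 counts and Monax4B010998 with 2854. A count of 0 allows up to 3 read pairs in a library, or 6 counts where both reads of a pair are counted.

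Few widely expressed genes were missing from lung. Only 3 genes had under 10 counts in lung and at least 10 in every other library. Among 7326 genes with 0 counts in lung, 3881 had 0 counts in all libraries, and 1200 had at least 10 counts in some other library. Under 3 counts in lung together with at least 10 CPM in every library of some other tissue was found for 189 genes. Of these, 90 reached that level in liver, 47 in kidney, 44 in pancreas, 29 in heart, 3 in spleen and 1 in thymus, and a gene can be counted for several tissues. Genes undetectable in lung were therefore mainly those of liver, kidney, pancreas and heart, and almost none were those of spleen or thymus.

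Most genes present in lung were present everywhere. With a tissue counted as having a gene at a mean of at least 1 CPM, 12052 of the 16017 lung genes (75.2%) were in all 7 tissues, and they held 89.2% of the lung counts. A further 1130 genes were in 6 tissues, 789 in 5, 624 in 4, 545 in 3 and 479 in lung and 1 other tissue. That other tissue was spleen for 194 genes, kidney for 79, thymus for 73, heart for 62, pancreas for 39 and liver for 32. Lung alone had 398 genes, with 2.87% of its counts. The genes found in a single tissue numbered 396 in spleen, 352 in heart, 317 in liver, 313 in pancreas, 248 in kidney and 150 in thymus. The genes missing from a single tissue were 29 for lung and 19 for kidney, against 105 for thymus, 133 for heart, 158 for spleen, 272 for pancreas and 443 for liver. Kidney, spleen and liver are means of several libraries here. With 1 library per tissue the order of lung and kidney was reversed, at 19 for lung and 39 for kidney. The others were then 100 for thymus, 107 for heart, 178 for spleen, 268 for pancreas and 511 for liver. At a limit of 10 CPM, 9886 genes were present in lung, 6472 of them in all 7 tissues and 305 in lung alone.

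Across genes, the lung library was most like thymus. Pearson's r of log2 CPM over 23602 genes was 0.885 with thymus and 0.848 with heart. With the 5 kidneys it was 0.852 ± 0.0119 (SD, n = 5, range 0.837 to 0.863), and with the 5 spleens 0.852 ± 0.00883 (SD, n = 5, range 0.842 to 0.861). Pancreas gave 0.829 and the 6 livers 0.776 ± 0.00253 (SD, n = 6, range 0.773 to 0.779). Thymus thus lay above the range of the kidney and spleen libraries, whose ranges overlapped one another and included the value of heart, and the livers lay below all others. Genes are not independent replicates, so these coefficients are descriptions. The tissues of the same animal as lung gave 0.857 for kidney, 0.861 for spleen and 0.775 for liver, within the ranges of the other animals or at their edge. Among 1 library of each tissue, lung was in turn the library nearest to kidney, spleen and thymus, whereas heart was nearest to thymus at 0.879. Counted by the 100 most abundant genes, the order was different: lung shared 40 of them with kidney, 37 with spleen, 35 with thymus, 27 with heart, 19 with pancreas and 14 with liver.

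The lung library was seldom at an extreme. For 13801 genes, the 7 tissues were ranked by CPM in 1 library each, from F6849 where that animal had the tissue and from F9150 for pancreas and thymus. Lung was the highest for 6.82% of the genes and the lowest for 6.80%, together 13.6%. Kidney was at an extreme for 14.8%, thymus for 25.8%, heart for 30.6%, pancreas for 31.8%, spleen for 36.6% and liver for 42.9%. Lung and kidney thus stayed near the middle after TMM correction, and lung most often took the third rank, with 18.8% of the genes. For kidney this depended on the scaling. With library sizes in place of TMM, lung was at an extreme for 15.3%, thymus for 17.0%, heart for 18.8% and kidney for 21.5%.

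**Figure D2:**
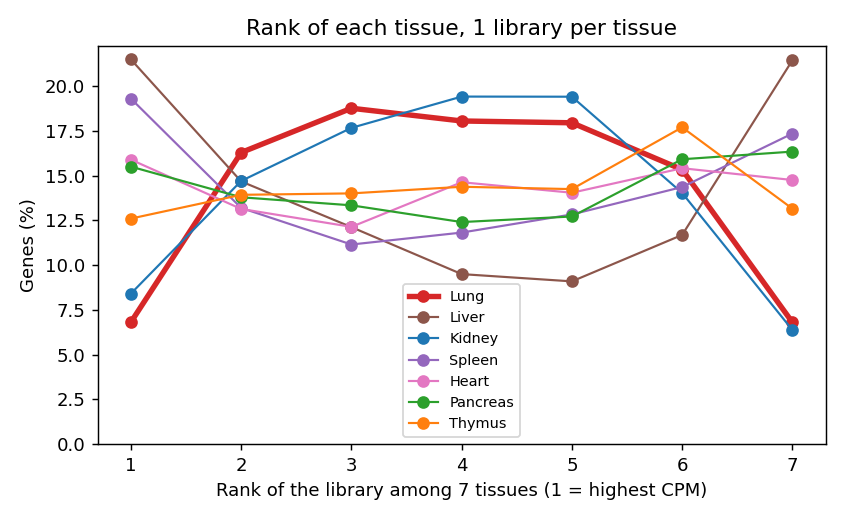
Percentage of 13801 genes (y axis) at which each tissue takes each rank of CPM (x axis, 1 = highest), with 1 library per tissue. Lung (thick line) falls to 6.82% at the first and 6.80% at the last rank, and liver has its largest shares there.

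The genes highest in lung were few and mostly of moderate level. A gene was taken as highest in lung at 10 CPM or more there and at least 8 times the level in each of the 19 other libraries. Counts under 3 were set to 3 in the latter. This held for 130 genes, 1.31% of the 9886 genes at 10 CPM in lung. Their level in lung had a median of 29.2 CPM and a range from 10.3 to 13373 CPM, with 26 genes at 100 CPM or more and 4 at 1000 CPM or more. The median ratio to the highest other library was 26.7. The ratio was 8 to 16 for 37 genes, which are those nearest to the limit, 16 to 100 for 58 and at least 100 for 35, of which 5 passed 1000. A ratio of 4 would have given 199 genes.

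These 130 genes held 4593951 counts, 4.40% of the lung library. The 95% Wilson interval was 4.397% to 4.405%, for counting error only. It takes the reads of a pair as independent, so it is too narrow. A few genes carried most of these counts. The most abundant gene held 45.7% of the list's counts and the 5 most abundant held 68.7%. Summed over the list, the level was 29247 CPM in lung, 161 in thymus, 117 in heart, 87.0 in pancreas, 124 to 236 in kidney, 103 to 209 in spleen and 37.8 to 207 in liver.

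Monax4B011714 was the most abundant gene of the lung library, with 2100482 counts and 13373 CPM, or 2.01% of all lung counts. It had 62 counts in thymus, 14 in heart and 2 in pancreas. The 5 kidneys had 14, 6, 26, 54 and 0 counts, the 5 spleens 12, 0, 4, 12 and 6, and the livers from 0 to 24. Thymus was the highest of the other libraries, at 0.805 CPM, or 0.00602% of the lung level. No other library came near lung for this gene.

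Monax4B022615 came second in the list, with 457794 counts and 2915 CPM in lung, and was uneven among livers. It had 122 CPM in the liver of M4046 and 72.1 in that of M4075, against 0.395 in F6849, 1.5 in F9150, 0.359 in F6852 and 1.91 in M4091. Kidney, spleen, heart, pancreas and thymus had at most 0.455 CPM. The lung level was 23.9 times that of the highest liver.

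**Figure D3:**
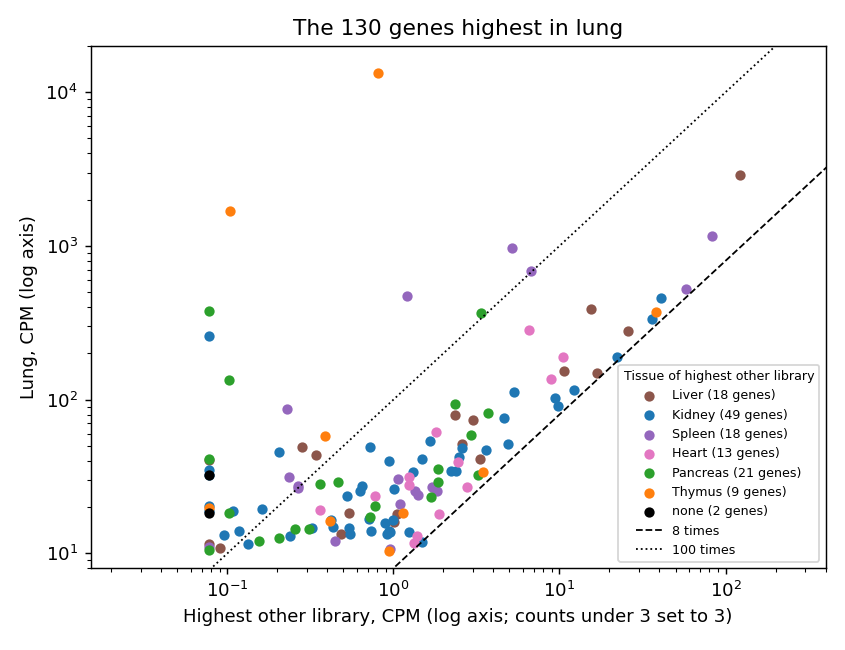
CPM in lung (y axis, log scale) against CPM in the highest of the 19 other libraries (x axis, log scale, counts under 3 set to 3) for the 130 genes highest in lung, coloured by the tissue of that library (black for the 2 genes with 0 counts in all of them). The uppermost point, at 13373 CPM in lung and 0.805 CPM in thymus, is Monax4B011714.

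Outside lung the 130 genes were mostly low. In 66 of them every other library was under 1 CPM, in 17 every other library was under 10 counts, and 2 had 0 counts in all 19. Only 13 had at least 10 counts in each of the other libraries. The tissue with the next highest mean was kidney for 37 genes, pancreas for 36, heart for 16, spleen for 14, thymus for 13 and liver for 12, and the 2 genes with 0 counts elsewhere have none. Some of these places rest on counts near 0, such as 2 counts in pancreas for Monax4B008628 and 2 in a kidney for Monax4B012301. These 2 counts were 0.0514 CPM in pancreas, a single library, and 0.0136 CPM in the kidney of F6849, before the mean over kidneys. The highest other library came from the animal of the lung library in 29 of the 130 genes, and this animal gave 4 of the 19 libraries.

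Kidney, liver and spleen have replicates, so the levels of these 130 genes could be tested among those 3 tissues, with lung left out of the fit. These libraries took part in the choice of the list, since each had to lie at least 8 times below lung. The background of all genes tested had no such limit, so shares set beside it are descriptions. Of the 130 genes, 85 passed the filter on low counts and 45 were too low to test. In edgeR's quasi-likelihood test at a false discovery rate of 0.05 over 20764 genes, 46 of the 85 (54.1%) were higher in kidney than in liver, where 30.9% of all genes tested were, and 9 (10.6%) were higher in liver, where 32.1% were. Kidney exceeded spleen in 34 (40.0%, background 31.6%), and spleen exceeded kidney in 8 (9.41%, background 30.9%). Spleen exceeded liver in 34 (40.0%), close to its background of 39.5%, and liver exceeded spleen in 16 (18.8%, background 34.5%). The median log2 fold change was 1.93 for kidney over liver, 0.85 for kidney over spleen and 0.83 for spleen over liver, against -0.03, -0.01 and 0.14 over all genes tested. The filter used the same liver, kidney and spleen libraries, so the genes that passed did so partly because some tissue had counts. Monax4B032656, with means of 0 CPM in liver, 0.498 in kidney and 0.0323 in spleen, passed through kidney. For such genes the filter partly set the direction. The shares here, and those for a tissue above both others, thus describe the 85 genes and not the whole list, and show no excess in a tissue. Kidney was above both of the others in 25 of the 85 genes (29.4%, background 13.9%), spleen in 6 (7.06%, background 22.1%) and liver in 4 (4.71%, background 23%).

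Monax4B020639 and Monax4B035559 were the genes of highest kidney level among these 25. Monax4B020639 had 460 CPM in lung and 27.6 ± 7.97 CPM in kidney (SD, n = 5, range 19.8 to 41.1). It had 6.39 ± 1.66 CPM in spleen (SD, n = 5, range 3.75 to 8.19) and 0.269 to 1.76 CPM in the 6 livers, so the 3 tissues did not overlap. The log2 fold change in kidney was 5.39 over liver (edgeR adjusted p = 1.02e-07) and 2.09 over spleen (edgeR adjusted p = 0.000672). Monax4B035559 had 336 CPM in lung, 26.1 ± 8.44 in kidney (SD, n = 5), 4.27 ± 1.39 in spleen (SD, n = 5) and 0.312 ± 0.233 in liver (SD, n = 6). Its log2 fold changes in kidney were 6.25 over liver (edgeR adjusted p = 1.56e-08) and 2.60 over spleen (edgeR adjusted p = 6.41e-05).

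In spleen the highest were Monax4B029579 and Monax4B034705. Monax4B029579 had 527 CPM in lung, 39.7 ± 11.1 in spleen (SD, n = 5), a mean of 14.9 in kidney (n = 5) and 1.55 ± 0.566 in liver (SD, n = 6). Spleen (27.8 to 57.7 CPM) and kidney (3.31 to 33.3 CPM) overlapped, and the log2 fold change between them was 1.44 (edgeR adjusted p = 0.0147), while that over liver was 4.60 (edgeR adjusted p = 6.45e-07). Monax4B034705 had 1152 CPM in lung and 83.3, 6.58, 26.8, 26.4 and 11.2 CPM in the spleens of F6849, F9150, M4046, M4075 and M4091. The highest spleen was that of the animal of the lung library. Liver had 1.17 to 9.97 CPM and overlapped with spleen, and kidney had 0.161 to 1.63 CPM. The log2 fold change in spleen was 5.14 over kidney (edgeR adjusted p = 6.61e-05) and 2.36 over liver (edgeR adjusted p = 0.00584).

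In liver the highest were Monax4B022615, described above, and Monax4B007525. For Monax4B022615 the log2 fold change in liver was 8.75 over kidney (edgeR adjusted p = 0.00125) and 12.35 over spleen (edgeR adjusted p = 0.000352), although 4 of the 6 livers were under 2 CPM. Monax4B007525 had 280 CPM in lung and 0 to 26.0 CPM in the 6 livers with a median of 5.43, and kidney and spleen had at most 0.0825 CPM. Its log2 fold change in liver was 9.34 over kidney (edgeR adjusted p = 0.000117) and 9.11 over spleen (edgeR adjusted p = 0.000105). Kidney and spleen were near 0 for both genes, so the size of these changes depends on the small count that the fit adds.

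No gene was lowest in lung by the same rule. Of 5951 genes at 10 CPM or more in all 19 other libraries, 0 had a lung level 8 times below the lowest of them, and 0 had one 2 times below. Lung lay below the lowest other library in 311 genes, by 1.5 times or more in 3, and above the highest in 120. The largest ratio was 1.86, for Monax4B012859, with 7.75 CPM in lung and 14.4 in heart, the lowest of the others. Monax4B013133 followed with a ratio of 1.64, at 12.3 CPM in lung and 20.2 in thymus. Having to lie below 19 libraries is a strict rule, so each tissue was also tried with 1 library against the 6 others. The genes lower by 2 times or more were then 4 for lung, 18 for kidney, 42 for thymus, 71 for heart, 165 for pancreas, 229 for spleen and 341 for liver. The genes higher by 8 times or more were 161 for lung, against 448 for liver, 285 for heart, 254 for spleen, 169 for kidney, 160 for pancreas and 16 for thymus. At 8 times the lower genes were 0 for lung, kidney and thymus, 2 for pancreas, 3 for heart, 15 for spleen and 28 for liver. Lung thus had a list of high genes as long as that of kidney or pancreas. It had the fewest low genes at 2 times, but at 8 times kidney and thymus had none either.

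Compared with 1 tissue at a time, lung had both higher and lower genes, and the balance differed between tissues. The rule was a level 8 times beyond the highest or lowest library of the tissue, and at least 10 CPM in lung for higher genes or in every library of the tissue for lower ones. Against kidney, 333 genes were higher in lung (3.37% of the 9886 that could be) and 331 lower (3.8%). Liver had 738 higher (7.47%) and 659 lower (8.03%), and heart 591 higher (5.98%) and 542 lower (5.71%). Pancreas had 873 higher (8.83%) and 441 lower (4.78%). Against spleen, 564 were higher (5.71%) and 129 lower (1.56%), and against thymus 625 were higher (6.32%) and 66 lower (0.723%). At 8 times, few genes were thus lower in lung than in thymus or spleen. At 4 times this did not hold for thymus, with 469 lower genes, beside 480 for kidney and 336 for spleen. The other tissues then had 840 for pancreas, 874 for heart and 958 for liver. Tissues with several libraries give fewer genes because their whole range must be passed: with only the library of F6849, 532 genes were lower than in kidney and 416 lower than in spleen. With library sizes in place of TMM, pancreas had 2366 higher and 157 lower, and liver 1772 higher and 411 lower. Of the genes at 10 CPM in lung or in every library of the tissue, 74.0% were within 2-fold, on the scale of CPM plus 1, of the mean of kidney, 70.0% of thymus, 67.1% of spleen, 64.1% of heart, 61.4% of pancreas and 55.1% of liver.

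**Figure D4:**
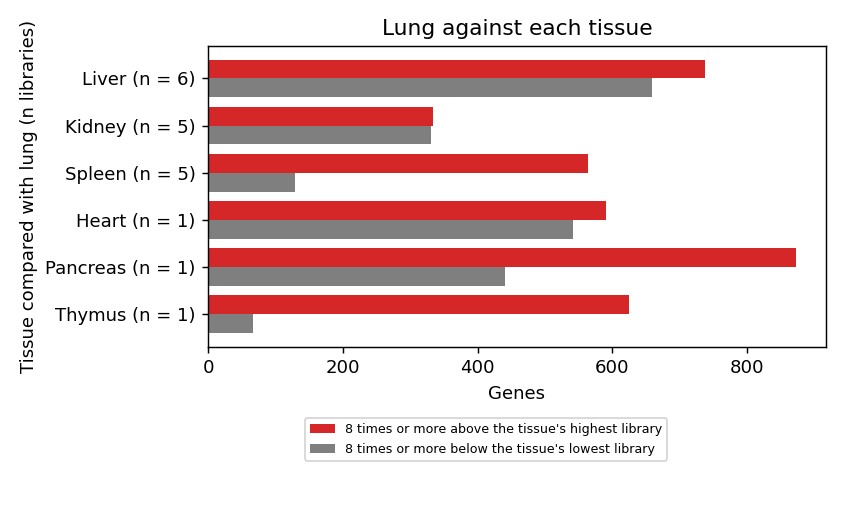
Number of genes (x axis) at least 8 times higher (red) or lower (grey) in lung than in all libraries of each tissue (y axis, with the number of libraries). The grey bars are shortest for thymus, 66 genes, and spleen, 129 genes, and the bars of kidney are nearly equal at 333 and 331.

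Of the 9886 genes at 10 CPM in lung, 8054 were neither higher nor lower in any of the 6 comparisons. Higher in lung in at least 1 comparison were 1508 genes, of which 611 were higher in 1, 324 in 2, 203 in 3, 124 in 4, 116 in 5 and 130 in all 6. The 116 genes higher in 5 of the 6 comparisons had kidney as the exception in 36, spleen in 21, thymus in 19, liver in 17, pancreas in 13 and heart in 10. Lower in lung in at least 1 comparison were 1854 genes, of which 1592 were lower in 1, 212 in 2, 48 in 3 and 2 in 4, and none were lower in 5 or 6 by this rule. The 6 comparisons share the lung library, so their counts are not independent.

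Most low genes of lung thus met the rule against 1 other tissue alone. Such a gene can still be high in a further tissue where not every library passed the limit. Monax4B032674, lower against thymus, had 7.26 CPM in lung, 310 in thymus and 48.2 to 3678 in liver. Lower against liver alone were 471 genes, heart alone 464, pancreas alone 317, kidney alone 178, spleen alone 116 and thymus alone 46. Those lower against liver and kidney together numbered 81 and those lower against liver and pancreas 41. The share of a tissue's lower genes that were lower against no other tissue was 89.9% for spleen, 85.6% for heart, 71.9% for pancreas, 71.5% for liver, 69.7% for thymus and 53.8% for kidney. Both genes lower in 4 comparisons were lower against liver, kidney, heart and pancreas. Monax4B013722 had 5.41 CPM in lung, 424 to 753 in liver, 106 to 158 in kidney, 65.6 in heart and 83.0 in pancreas, against 11.3 to 41.2 in spleen and 4.18 in thymus. Monax4B039306 had 7.87 CPM in lung, 118 to 194 in liver, 132 to 168 in kidney, 82.2 in heart and 99.3 in pancreas.

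The genes with the largest ratio below liver were Monax4B030289, with 3 counts in lung and 25010 to 37440 CPM in the 6 livers (median 29916), and Monax4B019954, with 12 counts in lung and 77174 to 281469 CPM in liver (median 143793). Below kidney they were Monax4B013691, with 2 counts in lung and 1020 to 2623 CPM in kidney, and Monax4B021576, with 6 counts and 1452 to 15058 CPM. Monax4B013691 was also abundant in liver, at 2414 to 5405 CPM. Each of these genes was nearly undetected in lung and abundant in the other organ. Below heart they were Monax4B043103, with 2 counts in lung and 19549 CPM in heart, and Monax4B026906, with 6 counts and 13337 CPM. Below pancreas they were Monax4B017256, with 22 counts in lung and 11333715 in pancreas, and Monax4B038665, with 4 counts and 1656712.

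Against spleen and thymus, the leading genes among those of at least 100 CPM in every library of the tissue kept a level in lung, with 1 exception. Below thymus, Monax4B001096 had 2.05 CPM in lung and 224 in thymus, a ratio of 109, and Monax4B032674 had 7.26 and 310 CPM, a ratio of 42.7. Monax4B032674 also had 48.2 to 3678 CPM in liver. Below spleen, Monax4B028262 had 4.72 CPM in lung and 159 to 336 in spleen, a ratio of 33.6 to the lowest spleen. The exception was Monax4B022855, with 10 counts (0.0637 CPM) in lung and 102 to 973 CPM in the 5 spleens (median 709). Under 100 CPM, some thymus genes were also nearly undetected in lung. Monax4B008783 had 10 counts in lung and 17.9 CPM in thymus, and Monax4B043526 had 10 counts and 16.5 CPM.

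The leading genes higher in lung than in a tissue, leaving out the 130 genes above, were few genes that recurred. Monax4B011824 had 1006 CPM in lung and led against liver (at most 2 counts in 6 libraries), kidney (at most 8 counts), spleen (at most 12 counts) and pancreas (0 counts, lung 13059-fold higher with the pancreas set to 3 counts). It was not a lung gene as such, since thymus had 7668 CPM. Monax4B041735 had 915 CPM in lung and came next against liver (at most 4 counts) and pancreas (4 counts). In the 5 kidneys it ranged from 0.665 to 354 CPM. Monax4B031493 came next against kidney, with 343 CPM in lung and at most 0.0761 in kidney, and was abundant in liver at 4753 to 12423 CPM.

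Monax4B023546 came next against spleen, heart and thymus, with 516 CPM in lung. It had at most 8 counts in spleen, 6 in thymus and 0 in heart (lung 12420-fold higher with heart set to 3 counts), and 42.7 to 164 CPM in liver. Monax4B027423 led against heart and thymus, with 1695 CPM in lung, 4 counts in heart and 8 in thymus. It was also present in kidney at 105 to 767 CPM and in liver at 136 to 465 CPM.

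Genes that lung shared with 1 other tissue alone were sought as those at 10 CPM or more in lung and in every library of that tissue, and at least 4 times the highest of the remaining libraries. There were 55: 19 with thymus, 10 with heart, 10 with pancreas, 7 with kidney, 5 with liver and 4 with spleen. The thymus genes held 0.961% of the lung counts, and lung was below thymus in all 19. Lung was also below every library of the tissue in all 5 liver genes, in 9 of the 10 heart genes, in 7 of the 10 pancreas genes, in 6 of the 7 kidney genes and in 2 of the 4 spleen genes. These numbers are small and their order changed with the setting. With 1 library per tissue they were 29 with thymus, 25 with spleen, 18 with pancreas, 15 with kidney, 14 with liver and 12 with heart. With library sizes alone they were 35 with kidney, 30 with thymus, 20 with spleen, 13 with heart, 9 with liver and 7 with pancreas. At 8 times they were 10 with thymus, 8 with pancreas, 5 with heart, 5 with liver, 2 with kidney and 0 with spleen. Single libraries also set them. Leaving out pancreas raised the kidney set from 7 to 30 and the liver set from 5 to 11, leaving out heart raised the thymus set from 19 to 37, and leaving out thymus raised the heart set from 10 to 24 and the liver set from 5 to 12.

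Monax4B011824 led the thymus set, with 158040 counts in lung, 590536 in thymus and at most 24 in any other library. Monax4B025983 followed, with 153 CPM in lung, 860 in thymus and at most 4.06 elsewhere. In both, lung had less than thymus and far more than all others.

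With liver, the first were Monax4B031493, described above, and Monax4B036409, at 252 CPM in lung, 3685 to 8293 in liver and at most 0.565 elsewhere. The lung level was 0.05 and 0.0475 of the liver mean.

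With spleen, Monax4B043927 had 28.0 CPM in lung and 24.7, 27.4, 94.3, 35.4 and 18.6 in the spleens of F6849, F9150, M4046, M4075 and M4091, so that lung lay within the range of spleen. Monax4B020315 had 526 CPM in lung against 154, 121, 141, 120 and 114 CPM in the same spleens, so that lung lay above them all, and at most 19.1 elsewhere.

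With kidney, Monax4B018544 had 42.5 CPM in lung and 65.1 to 136 in kidney, and Monax4B004924 had 12.4 CPM in lung and 58.2 to 187 in kidney. With heart, Monax4B014001 had 43.8 CPM in lung and 113 in heart, and Monax4B029441 had 45.1 and 64.2. Heart and lung came from the same animal. With pancreas, Monax4B045982 had 44.5 CPM in lung and 2516 in pancreas, whereas Monax4B012841 had nearly equal levels, 12.9 and 11.8.

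Genes high in another organ had different levels in lung depending on the organ. With lung left aside, genes highest in each other tissue were listed by the rule of 10 CPM and 8 times the highest library outside that tissue, with all libraries of the tissue required to pass. Lung had no part in the choice. As a percentage of the tissue's mean, the lung level had a median of 0.0576% for 278 liver genes, 0.172% for 135 pancreas genes, 0.348% for 103 kidney genes and 0.563% for 256 heart genes. It was 8.52% for 131 spleen genes (quartiles 4.17% and 11.2%) and 17.5% for 58 thymus genes (quartiles 13.2% and 25.9%). These medians depended on the limit: with 4 times in the rule they were 0.228% for liver, 0.943% for kidney, 1.8% for heart and 2.48% for pancreas, against 10.6% for spleen and 18.8% for thymus, so that pancreas moved to the highest of the first 4. With library sizes in place of TMM the median was 0.0692% for pancreas, 0.0337% for liver and 0.572% for kidney. Lung reached 10% or more of the tissue in 50 of the 58 thymus genes and 51 of the 131 spleen genes, against 5 of the 278 liver genes. Genes of thymus and spleen thus had higher medians in lung than those of liver, pancreas, kidney and heart under each of these settings. Some of this holds for other libraries too: taking for each gene the highest of the remaining libraries in place of lung, the median was 5.69% for the spleen genes and 4.92% for the thymus genes. The rule kept those libraries at least 8 times below the tissue and set no limit on lung, so these medians are not on equal terms with those of lung.

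The thymus genes stood above the other organs in lung. In 54 of the 58, lung was above all of the remaining 18 libraries, and in 14 it was at least 8 times the highest of them. The rule kept these 18 libraries at least 8 times below thymus and set no limit on lung, so this order was partly fixed by the rule. The 58 genes held 6.19% of the thymus counts and 1.37% of the lung counts, and their summed level was 9130 CPM in lung, 54046 in thymus and at most 1134 in the rest, in heart. The lung percentage ran from 0.356% to 76.0% over the 58 genes. In the 10 genes at 1000 CPM or more in thymus it ran from 10.9% to 23.8%, with a median of 14.8%. The most abundant of them, named after its values were seen, was Monax4B045448 with 14721 CPM in thymus, 2811 in lung and at most 184 elsewhere. Over the whole list, 47 genes were between 10% and 50% of thymus, and 4 were under 1%, among them Monax4B001096, with 322 counts in lung and 17218 in thymus.

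**Figure D5:**
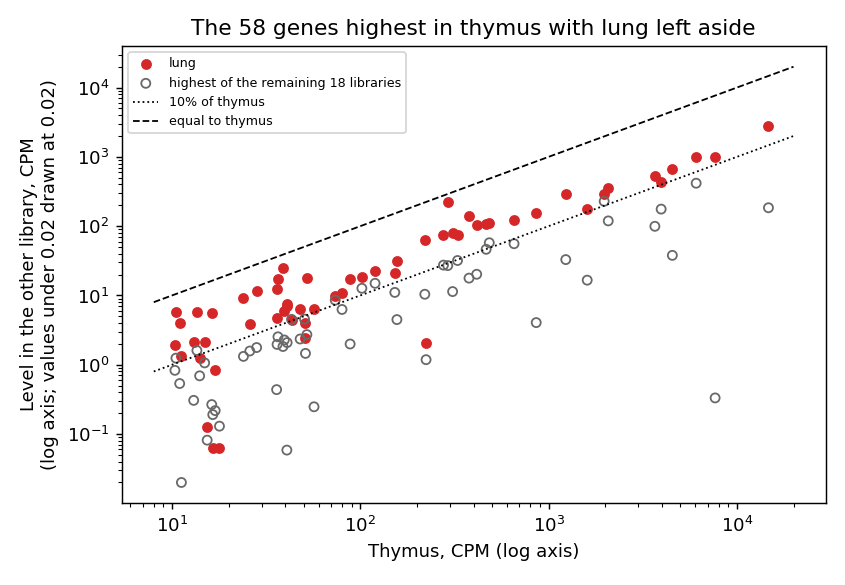
Level in lung (red) and in the highest of the 18 remaining libraries (open circles) on the y axis against the level in thymus (x axis), in CPM on log axes, for 58 genes highest in thymus when lung is left aside. Lung is at or above 10% of thymus (dotted line) in 50 genes and above the open circle in 54. The rule kept the open circles at least 8 times below thymus and set no limit on lung.

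The same lists were made with each other tissue left aside in turn, so that lung could be compared with them. The genes highest in lung, chosen without thymus, had a median of 0.375% of the lung level in thymus, and those chosen without spleen a median of 0.420% in spleen. Leaving out liver gave a thymus list of 21 genes with a median of 0.488% in liver, and leaving out spleen one of 14 genes with 0.181% in spleen. The largest median of any tissue other than lung was 2.66%, for spleen genes in liver. The medians of the thymus and spleen genes in lung were above this. By the share of genes at 10% or more of the tissue, the thymus genes in lung were again the highest at 86.2%, but the spleen genes in lung, at 38.9%, were not set apart, since liver reached 10% in 40.3% of 154 kidney genes and liver and heart each in 38.1% of 21 thymus genes. Thymus was sequenced in the same lane as lung and came from another animal, F9150. In the same lane the most abundant gene of lung had 62 counts in thymus, 0.00602% of its lung level. The part of the shared lane, or of any thymus RNA in the lung library, in these levels was not tested.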

How the data were processed

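Poly(A) RNA of 20 woodchuck tissue samples was sequenced by the authors as paired reads, without strand information per the stated kit, so overlapping and antisense genes cannot be told apart. The authors mapped the reads with gem-tools and deposited counts per Monax4B gene, whole numbers without normalization. The labels name CASAVA 1.8.4 and FastQC 0.11.5. Most counts above 0 are even, 85.6% in the first liver, since both reads of a pair are counted.

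Groups were taken from the tissue labels, and all 20 columns belong to a sample. CPM used edgeR's TMM factors. Fold limits, minima and the floor of 3 counts are given with each result. Equal totals are the expectation of binomial thinning. Similarity used log2 CPM with a prior count of 2. Liver, kidney and spleen were tested with edgeR's robust quasi-likelihood test with Benjamini-Hochberg adjustment over all genes passing filterByExpr, and no test was made on lung. Tools were R 4.3.3, edgeR 4.0.16, limma 3.58.1, DESeq2 1.42.0, Python 3.11.15, pandas 2.3.3, scipy 1.17.1 and matplotlib 3.10.9. The scripts were tested on simulated data.

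Genes named are at most 2 per comparison and direction. They are the most abundant in lung among the genes highest there, and the largest ratios otherwise, of at least 100 CPM in comparisons with a tissue and not among the genes highest in lung. In the tested tissues they have the highest level among those past both tests. The members, lists and rules were chosen with earlier results of these data known. The ranks among tissues, the lists with a tissue left aside, the genes lower in 4 comparisons, the genes with 0 counts elsewhere and Monax4B045448 were added after seeing the data. The alternatives were other fold limits, minima, floors, scalings, gene sets and tools, the library of F6849 alone, an animal block and each library left out in turn. The animal labels, not the replicate numbers, pair the libraries: after removal of the tissue means, the 15 pairs of libraries of an animal correlated at 0.123 to 0.314, and pairs of different animals at -0.138 to 0.0765. The identifiers matching the RefSeq table numbered 0.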

Additional observations from a re-analysis of the deposited data

Results flagged for a closer look

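In 2 of 18 sets of 4 to 10 libraries of a tissue, 1 library stood apart by Dixon's criterion, which chance meets in about 1 of 20 groups. Both were the spleen of F6849, the animal of the lung library. The summed level of the 130 genes highest in lung was 209 CPM there and 103 to 131 CPM in the other 4 spleens. Monax4B034705 contributed 83.3 CPM and Monax4B029579 57.7 CPM to it. The total counts of this spleen were 1.23268e+08, against 59487004 to 69512327 in the others. CPM is scaled by that total, and the part of depth in the higher sum was not tested.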

How the results depend on the processing

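Of 438 alternatives over 37 results, 32 moved a main value and 26 moved another value given in the report. A count has no sign, so a reversed direction could not show in the counts. The balance against kidney did change. It was 333 higher and 331 lower, but 467 and 532 with only F6849 and 348 and 360 without the kidney of M4091. The 130 genes highest in lung became 199 at 4 times, 267 at a minimum of 1 CPM and 26 at 100 CPM. At 4 times, the genes higher in lung were 1154 against liver, 540 against kidney, 900 against spleen, 1009 against heart, 1433 against pancreas and 971 against thymus, and the lower genes were 336 against spleen, 874 against heart, 840 against pancreas and 469 against thymus. With library sizes alone the numbers were 1772 higher and 411 lower for liver, 2366 and 157 for pancreas, 929 higher for heart and 40 lower for thymus. With only F6849, 532 genes were lower than in kidney and 416 lower than in spleen. The 55 genes shared with 1 tissue became 30 at 8 times, 114 with library sizes alone and 113 with 1 library per tissue. The r with thymus exceeded that of the next tissue, kidney by its mean, by 0.0333. Heart was the next tissue over the 1000 most variable genes, with a gap of 0.125, and without the genes highest in a tissue with 1 library, with a gap of 0.0143. The list chosen at 4 times, of 199 genes, gave 17 with liver above kidney, 81 with kidney above liver and 29 with liver above spleen. It gave 57 with spleen above liver, 67 with kidney above spleen and 22 with spleen above kidney. For the 130 genes, the paired fit with the animal as replicate block gave 7, 44, 16, 34, 36 and 8 in these directions. Without the block the counts were 9, 46, 16, 34, 34 and 8, and none moved by more than 1.5 times. The number tested of the list at 4 times is not given, nor the share over all genes in the paired fit. These counts are therefore not set against a background. Leaving out 1 library at a time gave 130 to 149 genes highest in lung, the highest without thymus, 744 to 771 higher than in liver, 341 to 353 higher than in kidney and 574 to 620 higher than in spleen. Lung has 1 library, so its sampling could not be varied.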
